A study of Mus musculus with 8 samples.

Results

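Fgl2 and 8 further genes of macrophage coagulation and fibrinolysis (F3, F7, F10, F13a1, Plau, Plaur, Tfpi and Thbd) were examined in primary cultured mouse microglia. They were found by gene symbol, 9 genes of the 55385 in the count table. Of these, 8 were among the 17537 genes that passed the filter on low counts, and F7 was not. Fgl2 was chosen by its rise with IgG in these same libraries, so its difference between the groups is given as a description with no test. The other 8 genes were listed for their function, with earlier results of these data already known.

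The study asked what immunoglobulin G, the antibody class that reaches pups from the mother, does to microglia. Microglia came from the neocortex and hippocampus of newborn wild-type mice. Tissue from several brains was pooled, grown in mixed culture in medium with fetal bovine serum, and the microglia were shaken off the flasks and plated again. At day 15 in vitro, 4 cultures received 10 µg/ml IgG for 24 h and 4 cultures formed the control, which the labels call untreated and the methods describe as given PBS. All 8 libraries held polyA RNA of wild-type cells, and control and IgG libraries with equal replicate numbers carried the same date in the labels. These 4 pairs were compared within the date. With the pair as a block, p-values measure the spread of the change with IgG among these 4 pairs of cultures. The labels do not say whether the dates were separate litters, so that spread may not be one between litters.

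Clotting starts on a cell surface when tissue factor, the product of F3, binds factor VII and activates factor X, which then makes thrombin from prothrombin. Thrombin cuts fibrinogen to fibrin, and factor XIII, whose A subunit F13a1 encodes, cross-links it. TFPI blocks the start of the cascade, thrombomodulin (Thbd) turns thrombin toward activating protein C, and urokinase (Plau), held at the cell surface by its receptor (Plaur), makes plasmin, which dissolves fibrin. Fgl2 encodes fibrinogen-like protein 2, known as a membrane prothrombinase of activated macrophages and as a secreted immunoregulatory protein.

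Library totals ran from 21287816 to 23703216 counts, and 3 counts, the level up to which a gene without counts could lie, came to 0.124 to 0.147 CPM (counts scaled to TMM-corrected library size). The IgG libraries of replicates 1 and 3 stood apart, with 4.85% and 5.59% of counts from mitochondrially encoded genes against 1.97% to 2.41% in the other 6 libraries. Over 17503 genes, the change within a pair also ran with the GC content of the exons, with Spearman's rho of -0.384 and -0.386 in pairs 1 and 3, -0.031 in pair 2 and 0.31 in pair 4, as a description across genes. With exon length rho was 0.21, -0.032, 0.207 and -0.35 in pairs 1 to 4. A fit with the trends of length and GC removed is named where it moved a value by over 1.5 times. The part of the mitochondrial share in the results below was not tested, and the main values that rest on these libraries are also given without pairs 1 and 3. All 8 microglia markers passed the filter and summed to 5330 to 5594 CPM in control and 5503 to 6504 CPM in IgG libraries, although Tmem119 and P2ry12 were low, at 5.09 ± 0.51 and 6.98 ± 0.76 CPM (SD, n = 4) in control. Of this list, Aif1, the Iba1 gene, passed the adjusted p, at 78.4 ± 17.4 CPM in control and 124.9 ± 14.4 CPM with IgG (log2 difference 0.69 ± 0.097, edgeR adjusted p = 0.0331). Oligodendrocyte lineage markers summed to 1078 to 1643 CPM in control and 928 to 1546 CPM in IgG libraries, and astrocyte markers to 111 to 124 and 106 to 119 CPM. In bulk libraries such as these, fewer cells of a type and less RNA per cell cannot be told apart.

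The promoter sequences of 7 of the 9 genes were matched in RefSeq (GRCm38.p6), all but Plau and Thbd. Those of Fgl2, F3 and Plaur are shown because, of the 8 tested genes, Fgl2 had the highest log2 difference and Plaur the lowest, and F3 encodes the trigger of the cascade. The runs cover chr5:21372423-21372663, chr3:121723287-121723536 and chr7:24462233-24462482, all on the plus strand, and end at or before the RefSeq start. The last 22 bases of the Fgl2 run lie past the start that GENCODE gives. Capitals mark matches to any of 6 motifs, searched on both strands: the gamma-activated site (GAS) TTCNNNGAA, the interferon-stimulated response element core GAAANNGAA, the AP-1 site TGANTCA, the PU.1 core GAGGAA, the GC box GGGCGG and the EGR core GCGGGGGC.
Fgl2: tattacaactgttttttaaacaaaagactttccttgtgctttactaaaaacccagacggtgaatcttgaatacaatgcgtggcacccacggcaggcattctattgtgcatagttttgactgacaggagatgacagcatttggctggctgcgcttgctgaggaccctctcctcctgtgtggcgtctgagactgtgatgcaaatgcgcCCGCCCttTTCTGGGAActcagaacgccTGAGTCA
F3: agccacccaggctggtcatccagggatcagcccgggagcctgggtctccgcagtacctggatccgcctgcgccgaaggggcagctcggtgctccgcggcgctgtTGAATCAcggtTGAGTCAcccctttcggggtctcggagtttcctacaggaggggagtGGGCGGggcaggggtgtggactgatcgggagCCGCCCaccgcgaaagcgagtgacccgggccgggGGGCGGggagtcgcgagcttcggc
Plaur: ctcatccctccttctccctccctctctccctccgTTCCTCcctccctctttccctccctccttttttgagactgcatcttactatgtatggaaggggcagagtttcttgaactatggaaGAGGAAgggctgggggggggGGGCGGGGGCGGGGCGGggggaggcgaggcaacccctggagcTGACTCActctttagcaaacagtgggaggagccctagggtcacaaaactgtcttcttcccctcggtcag

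In the 300-base windows around the start of the 7 matched genes, a GAS match was found in Fgl2 alone, with its first base 36 bases upstream of the RefSeq start. AP-1 matches lay 16 bases upstream in Fgl2, 146 and 135 bases upstream in F3, and 69 bases upstream in Plaur, all counted from the RefSeq start. By the GENCODE start of Fgl2, its AP-1 match and the last bases of its GAS match lie inside the gene. Fgl2 had 1 GC box, F3 had 3, and Plaur had 3, starting 111, 105 and 100 bases upstream, the first and second of which overlapped its EGR core match at 109 bases. Over 32851 promoters of the same length, 8.3% held a GAS match, 7.81% an AP-1 match, 35.66% a GC box, 4.81% an EGR core, 28.28% a PU.1 core and 8.56% the interferon element core, which none of the 7 genes held. These are matches of letters in this window and were not linked to any measured binding.

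The levels of the 9 genes in control cultures spanned more than 3 orders of magnitude. Per length, in TPM (transcript shares corrected for exon length, mean ± SD, n = 4), Plau stood at 624.6 ± 46.2 and Plaur at 114.2 ± 19.6. Fgl2 followed at 14.5 ± 4.7 and Tfpi at 10.2 ± 0.95, and the ranges of these neighbours overlapped. F3 at 1.74 ± 0.46 and Thbd at 1.61 ± 0.32 also overlapped, and both lay above F10 at 0.69 ± 0.15. F13a1 at 0.17 ± 0.059 and F7 at 0.13 ± 0.13 overlapped at the bottom of the order. Control cultures held high transcript levels of the urokinase pair and low levels of the factors that start clotting.

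**Figure D1:**
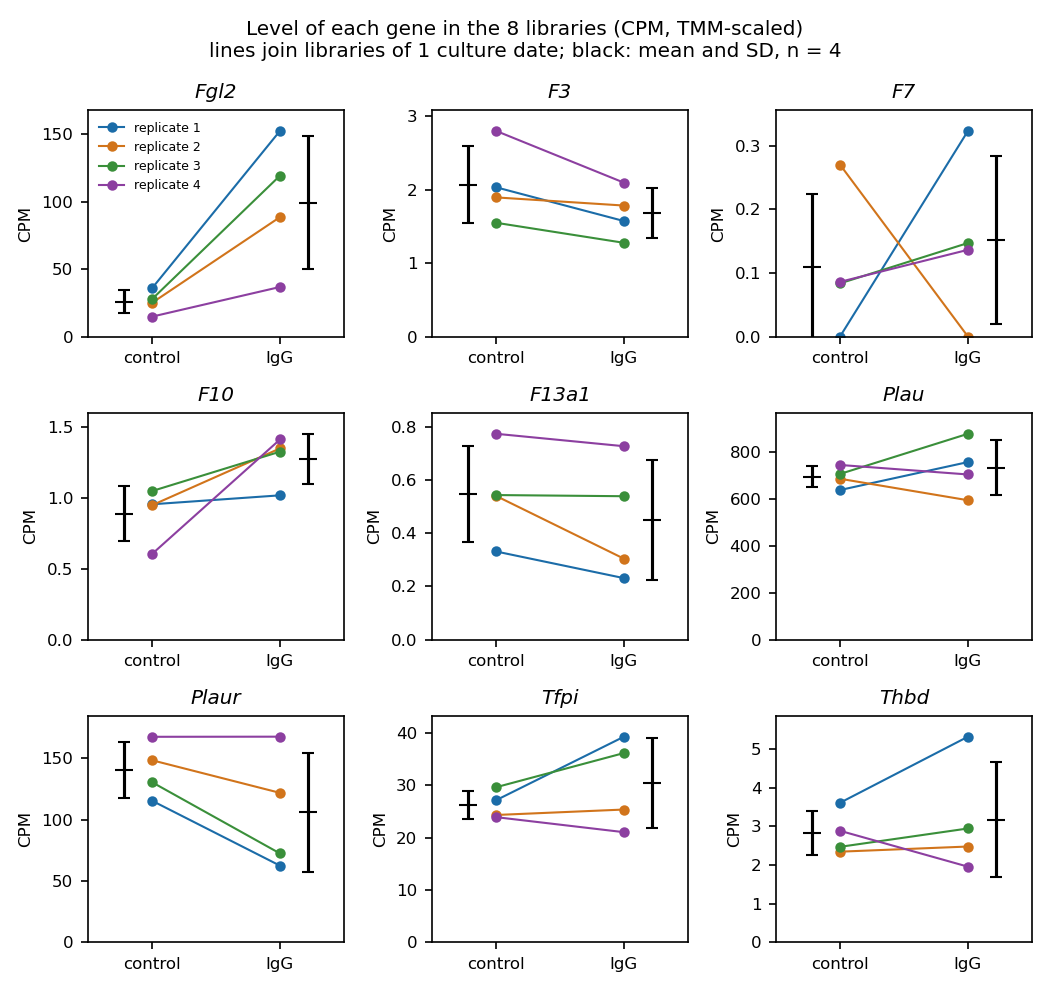
Level of each of the 9 genes in every library, in CPM on linear axes that start at 0. Lines join the control and IgG library that carry the same date in the labels, which do not say what the date marks. Black marks give the mean and SD of 4 libraries. The 4 Fgl2 lines all climb, those of Plaur fall steeply in replicates 1 and 3 and are flat in replicate 4, and Plau shows no common direction.

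Fgl2 lies at chr5:21372642-21378374 (mm10, plus strand). It stood at 35.8, 25.0, 27.8 and 14.8 CPM in control replicates 1 to 4 and at 152.6, 88.7, 119.4 and 36.8 CPM in IgG replicates 1 to 4. The groups did not overlap, but the margin was narrow, since the lowest IgG library (replicate 4) was close to the highest control library (replicate 1). The fitted log2 difference was 1.84 ± 0.14 (SE), a 3.59-fold higher level with IgG. The changes within the 4 dates were 2.09, 1.82, 2.10 and 1.31 on the log2 CPM scale. Without the pairs of replicates 1 and 3 the fitted difference was 1.58 ± 0.15. Fgl2 sits inside Ccdc146, a gene of the opposite strand with 6 to 21 counts per library against 344 to 3300 for Fgl2.

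Control cultures also differed among themselves in Fgl2. Its SD over the 4 control libraries, 0.53 on the log2 CPM scale, was at the 99.4th percentile of the 500 genes of most similar level. The order of the dates was alike in both groups, with replicate 1 highest, then replicates 3, 2 and 4. Plaur was the only other gene of the 9 at or above the 95th percentile, with an SD of 0.23, and Tfpi, Plau, F3, Thbd, F13a1 and F10 lay between percentiles 43 and 81.2.

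None of the 7 other tested genes passed an adjusted p of 0.05 (edgeR quasi-likelihood test with the pair as a block, Benjamini-Hochberg over all genes tested), where 0.393% of the 17537 genes did. DESeq2 and limma-voom also called 0 of the 7, though DESeq2 gave no adjusted p for F13a1. At an unadjusted p under 0.05 there was 1, Plaur, beside 10.2% of all genes, and without the block there were 0. None met the criterion that the study states, a p under 0.01 with a log2 fold change beyond 0.5 in either direction, which 1.82% of all genes met with the block and 0.844% without it. None of the 7 had all IgG libraries above all control libraries, as 2.6% of all genes did, or all below, as 1.57% did. Of the 7, F10 was higher in all 4 pairs, as were 10.4% of all genes, and F3 and F13a1 were lower in all 4 pairs, as were 8.47%.

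**Figure D2:**
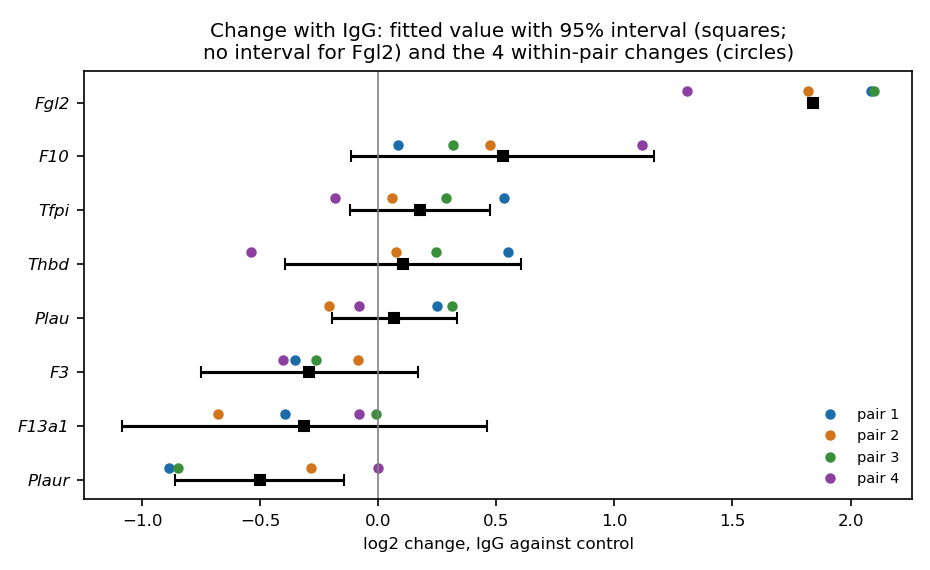
Log2 change with IgG against control for the 8 tested genes, as the fitted value (squares, with a 95% interval for all but Fgl2, which was chosen by this difference) and the change within each of the 4 pairs (circles). The interval of Plaur lies below 0, from -0.86 to -0.14 before adjustment over all genes, and those of the other 6 tested genes span 0.

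Among the genes that start clotting, F3 was low but above the filter in every fit. Tissue factor transcripts gave 37 to 65 counts in control and 26 to 46 in IgG libraries, or 2.03, 1.89, 1.55 and 2.80 CPM in control replicates 1 to 4 and 1.57, 1.78, 1.28 and 2.09 CPM in IgG replicates 1 to 4. The groups overlapped although each pair was lower with IgG, and the log2 difference was -0.29 ± 0.20 (SE; 95% interval -0.75 to 0.17; edgeR adjusted p = 0.618). The astrocyte marker sum, given because astrocytes are a known source of tissue factor in brain, was lower with IgG in all 4 pairs, from 110.7, 115.3, 124.2 and 113.7 CPM in control to 106.1, 106.0, 118.8 and 109.0 CPM in IgG replicates 1 to 4. Oligodendrocyte lineage and neuron marker sums were also lower in every pair, and microglia and border-associated macrophage sums were higher in every pair. The part of these sums in the F3 difference was not tested.

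Factor VII was near absent. F7 gave 0, 6, 2 and 2 counts in control and 7, 0, 3 and 3 counts in IgG replicates 1 to 4, and 6 of the 8 libraries were at or under 3 counts, so no fold is given. F10, the neighbour of F7 on chromosome 8, gave 14 to 25 counts in control and 22 to 31 in IgG libraries. Its levels were 0.95, 0.95, 1.05 and 0.60 CPM in control and 1.02, 1.35, 1.33 and 1.41 CPM in IgG replicates 1 to 4. Only control replicate 3 exceeded an IgG library, and the log2 difference of 0.53 ± 0.28 (95% interval -0.11 to 1.17; edgeR adjusted p = 0.546) leaned on pair 4, whose change was the highest of the 4. Without that pair the difference was 0.30, and without pairs 1 and 3 it was 0.84.

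F13a1, the transglutaminase subunit and a known marker of some tissue macrophages, gave 8, 12, 13 and 18 counts in control and 5, 7, 11 and 16 counts in IgG replicates 1 to 4. The order of the dates was alike in both groups, and the log2 difference was -0.31 ± 0.34 (95% interval -1.09 to 0.46; edgeR adjusted p = 0.74), or -0.16 without replicate 2. Of the border-associated macrophage markers, Lyve1 and Cd163 gave 7 and 10 counts over all 8 libraries, whereas Ms4a7 stood at 201.4 ± 31.1 CPM in control and 305.7 ± 33.5 CPM with IgG (log2 difference 0.61 ± 0.090, edgeR adjusted p = 0.0381). Cbr2 stood at 0.59 ± 0.42 CPM in control and 1.31 ± 0.52 CPM with IgG, was higher in all 4 pairs and met the criterion of the study (log2 difference 1.23 ± 0.30, edgeR adjusted p = 0.22). The list as a whole had 6 of 8 markers tested, 5 higher and 1 lower with IgG. For the rest of the 6, log2 differences were 0.25 ± 0.096 (Stab1, edgeR adjusted p = 0.463), 0.18 ± 0.13 (Mrc1, 0.637), 0.17 ± 0.16 (Pf4, 0.71) and -0.048 ± 0.17 (Folr2, 0.925). The list summed to 950 to 1127 CPM in control and 1088 to 1484 CPM in IgG libraries. Most of that sum was Stab1, at 758.6 ± 49.7 CPM in control and 907.5 ± 135.4 CPM with IgG.

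Of the inhibitors of clotting, Tfpi stood at 27.1, 24.3, 29.6 and 23.9 CPM in control and 39.3, 25.4, 36.1 and 21.0 CPM in IgG replicates 1 to 4. IgG replicates 1 and 3 were above every control library and IgG replicate 4 was below all of them. The log2 difference was 0.18 ± 0.13 (95% interval -0.12 to 0.47; edgeR adjusted p = 0.634), and it was -0.061 without pairs 1 and 3. It was 0.057 without replicate 1, 0.28 without replicate 4, 0.085 with the length and GC trends removed and 0.076 with scaling by library totals. Thbd stood at 3.61, 2.35, 2.47 and 2.89 CPM in control and 5.32, 2.48, 2.95 and 1.96 CPM in IgG replicates 1 to 4. Its highest and its lowest library were both IgG libraries, and the log2 difference of 0.11 ± 0.22 (95% interval -0.39 to 0.61; edgeR adjusted p = 0.874) was -0.24 without pairs 1 and 3. Endothelial cells are the classic source of both proteins, and 4 of 6 endothelial markers were tested. Cldn5 and Tek gave 0 and 2 counts over all 8 libraries, while Flt1 stood at 139.0 ± 20.5 CPM in control and 121.9 ± 3.8 CPM with IgG and made up most of the list's sum, 130 to 168 CPM in control and 123 to 139 CPM in IgG libraries. Kdr stood at 7.44 ± 1.23 CPM in control and 8.02 ± 3.06 CPM with IgG (log2 difference 0.050 ± 0.17, edgeR adjusted p = 0.924). Pecam1 and Cdh5 were low, at 0.52 ± 0.36 and 0.89 ± 0.49 CPM in control and 1.03 ± 0.55 and 1.76 ± 0.97 CPM with IgG. Cdh5 was higher in all 4 pairs and met the criterion of the study (log2 difference 0.98 ± 0.24, edgeR adjusted p = 0.221). The part of these markers in the Tfpi and Thbd values was not tested.

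Plau, the urokinase gene, was the most abundant of the 9 and moved little. It stood at 639.4, 687.7, 708.2 and 746.7 CPM in control and 759.1, 595.7, 880.1 and 706.0 CPM in IgG replicates 1 to 4. The control range lay inside the IgG range, and the log2 difference was 0.068 ± 0.12 (95% interval -0.20 to 0.33; edgeR adjusted p = 0.845). It was 0.31 in pair 3 and -0.21 in pair 2, and the fitted value was -0.14 without pairs 1 and 3.

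Plaur, the urokinase receptor, stood at 115.5, 148.5, 130.6 and 167.6 CPM in control and 62.6, 121.9, 72.5 and 167.7 CPM in IgG replicates 1 to 4. IgG replicates 1 and 3 were below every control library, and in pair 4 the libraries were level. The log2 difference was -0.50 ± 0.16 (edgeR adjusted p = 0.365), or 0.706 of the control level, with pair changes of -0.88, -0.28, -0.85 and 0.0010. Without pairs 1 and 3 it was -0.14 ± 0.14 (edgeR adjusted p = 0.893). It passed an adjusted p of 0.05 in 1 alternative, in which genes with at least 1 count were kept, at 0.0253, and its adjusted p ranged up to 1 over the alternatives tried.

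The ratio of Plau to Plaur in TPM set the same libraries apart. It was 6.12, 5.12, 5.996 and 4.93 in control replicates 1 to 4, and 13.4, 5.40, 13.4 and 4.66 in IgG replicates 1 to 4. The libraries with the higher ratio were those with the higher mitochondrial share. The ratio of Fgl2 to Tfpi, genes of overlapping level in control, was 0.89 to 1.91 in control and 2.53 to 5.61 in IgG libraries, without overlap, which is a description since Fgl2 enters it.

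**Figure D3:**
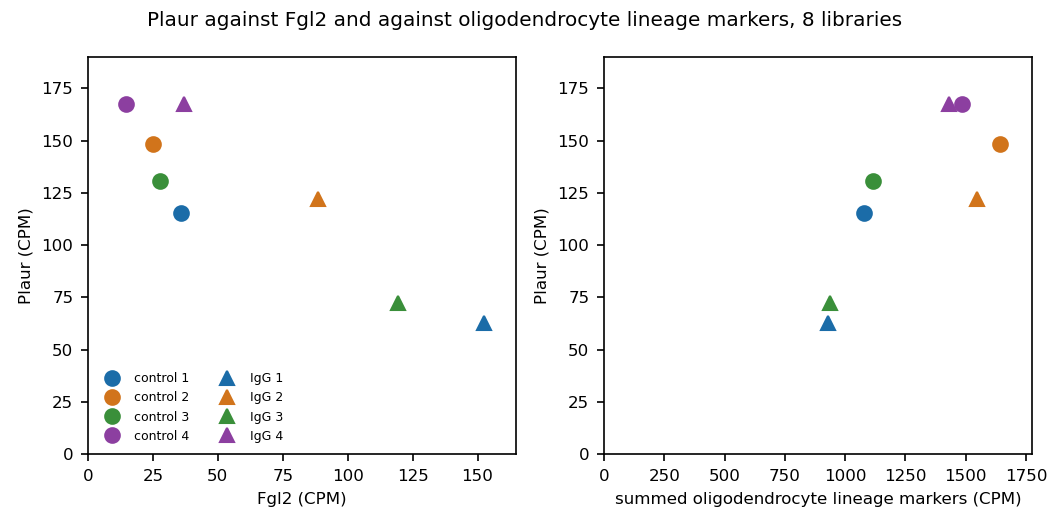
Plaur in CPM against Fgl2 in CPM (left) and against the summed oligodendrocyte lineage markers in CPM (right), 1 point per library, circles for control, triangles for IgG and colours for the replicate. The library with the most Fgl2, IgG replicate 1, has the least Plaur, and Plaur is low in the libraries with few oligodendrocyte lineage transcripts.

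Plaur ran opposite to Fgl2 over the libraries. Within each group, the dates ordered by Fgl2 (replicates 1, 3, 2 and 4) were in the reverse order by Plaur. Over the 8 libraries, Pearson's r of log2 CPM was -0.87, and -0.93 once the group means were removed, as a description over libraries that share dates and group. Of 9884 genes with a mean of at least 10 CPM, Plaur ranked 9782nd in likeness to Fgl2. Tfpi had r = 0.72 (0.87 with group means removed) and Plau r = 0.24. The oligodendrocyte lineage sum moved with Plaur, at 1078, 1643, 1116 and 1483 CPM in control and 928, 1546, 939 and 1431 CPM in IgG replicates 1 to 4, and all 6 of its markers passed the filter. Its part in the Plaur values was not tested.

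The 10 genes most like Fgl2 over the 8 libraries were Clec4a1 (r = 0.993), Aoah, Clec4a2, Gm20547, Tmem219, Slamf9, Ppp6r1, Pik3r5, Adgre1 and Ms4a6c (r = 0.973). Clec4a1 and Clec4a2 encode C-type lectin receptors of myeloid cells, Aoah a lipase that inactivates endotoxin, and Adgre1 the F4/80 antigen of macrophages. Clec4a1 stood at 40.9, 34.1, 30.2 and 19.8 CPM in control and 128.7, 73.1, 108.7 and 39.1 CPM in IgG replicates 1 to 4. Adgre1 stood at 754 to 940 CPM in control and 1159 to 2184 CPM in IgG libraries. The 10 were ranked by r over both groups together, and Fgl2 was chosen by its rise. Their higher levels with IgG therefore follow from the selection and are a description only. The fitted log2 differences of the 10 ranged from 0.13 (Ppp6r1) to 1.53 (Slamf9), all below that of Fgl2. With the group means removed, their r with Fgl2 ranged from 0.92 (Adgre1) to 0.985 (Clec4a1). Gm20547 overlaps C2 and Cfb, so its counts may include reads of those genes, and with scaling by library totals 6 of the 10 genes were shared.

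**Figure D4:**
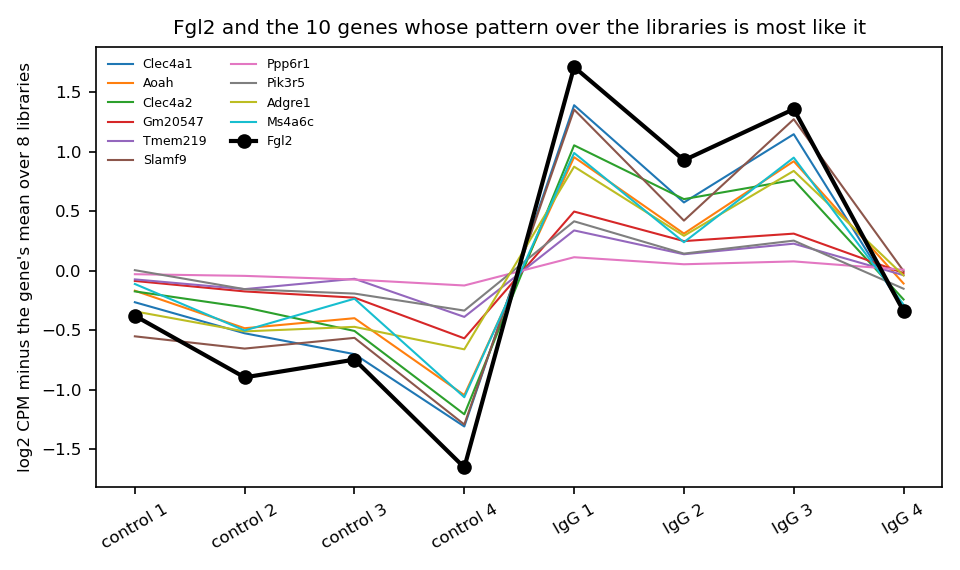
Log2 CPM of Fgl2 (black) and of the 10 genes most like it (colours), each minus its own mean over the 8 libraries, which stand along the horizontal axis. The lines are highest in IgG replicates 1 and 3 and lowest in control replicate 4, and Fgl2 has the widest range. The 10 genes were chosen by their likeness to Fgl2 over these same libraries, so the shared pattern follows from the choice.

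The wider pathway was read from lists of 19 procoagulant factors and fibrinogen genes, 12 anticoagulants, 9 genes of plasminogen activation and 7 inhibitors of fibrinolysis. Transcripts of fibrinogen, the kininogens, prothrombin, plasminogen and protein C were not detected or nearly so, whereas F9 and F10 passed the filter. Over all 8 libraries Fgb, Fgg, Kng1, Kng2, Proc and Serpina5 gave 0 counts, which allows up to 0.147 CPM on the TMM-corrected scale. Fga gave 4 counts in total, F2 (prothrombin) gave 6 and Plg (plasminogen) gave 1.

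Of the procoagulant list, 8 of 19 genes were tested. Leaving aside Fgl2, which was chosen by its rise, none of the 7 others passed the adjusted p in edgeR, DESeq2 or limma-voom. F13a1, 1 of these, had no adjusted p in DESeq2. At an unadjusted p under 0.05 in edgeR there was 1 (F9), beside 10.2% of all genes tested. Of these 7, 4 were higher and 3 lower with IgG, with a median log2 difference of 0.16, beside -0.0051 over all genes tested. That median ran from -0.036 to 0.30 with single pairs left out (lowest without replicate 1, highest without replicate 4) and was -0.26 without pairs 1 and 3. Vwf and F9, named here after their values were seen, were the other genes above F3 in control TPM. Vwf, the von Willebrand factor gene, stood at 43.5 ± 8.5 CPM in control and 40.3 ± 4.3 CPM with IgG (log2 difference -0.098 ± 0.11, edgeR adjusted p = 0.76), and the difference was -0.30 ± 0.14 without pairs 1 and 3. F9, the factor IX gene, stood at 3.86, 4.60, 6.49 and 3.02 CPM in control and 7.63, 5.0, 8.34 and 3.82 CPM in IgG replicates 1 to 4 (log2 difference 0.46 ± 0.18, edgeR adjusted p = 0.461), and the difference was 0.22 without pairs 1 and 3.

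Of the anticoagulants, 7 of 12 were tested, 4 higher and 3 lower, with a median of 0.019 (-0.070 without pairs 1 and 3) and 0 past the adjusted p or an unadjusted p of 0.05 in edgeR. The median also turned to -0.031 without replicate 1 and to -0.013 without replicate 3. With scaling by library totals it was -0.081, with 3 higher and 4 lower. Anxa5, whose product shields phosphatidylserine from clotting factors, stood at 712.7 ± 31.4 TPM in control and 623.5 ± 65.3 TPM with IgG. Pros1, the protein S gene, stood at 64.2 ± 3.8 and 59.4 ± 7.7 TPM. Procr, the endothelial protein C receptor gene, stood at 14.5 ± 1.9 and 10.5 ± 2.7 TPM (log2 difference -0.35 ± 0.17, edgeR adjusted p = 0.518), and the difference was -0.070 without pairs 1 and 3.

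Of the plasminogen activation list, 7 of 9 were tested, 2 higher and 5 lower, with a median of -0.14, or -0.038 without pairs 1 and 3. That median was -0.082 without replicate 3 and -0.25 without replicate 4. With scaling by library totals it was -0.24, with 1 higher and 6 lower. None of the 7 passed the adjusted p with edgeR, DESeq2 or limma-voom. At an unadjusted p under 0.05 with edgeR there was 1 (Plaur), beside 10.2% of all genes tested. Beside Plau and Plaur, Anxa2, a plasminogen receptor subunit, stood at 158.4 ± 10.9 TPM in control and 133.0 ± 23.7 TPM with IgG. Of the inhibitors, 4 of 7 were tested, 3 higher and 1 lower, with a median of 0.091 and 0 past either p in edgeR. This median turned to -0.047 without replicate 3, to -0.087 without pairs 1 and 3 and to -0.0099 with scaling by library totals. Serpine2, the protease nexin 1 gene, stood at 31.5 ± 2.7 and 31.0 ± 2.0 TPM, and Serpina3n at 15.8 ± 0.92 and 13.6 ± 0.90 TPM.

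**Figure D5:**
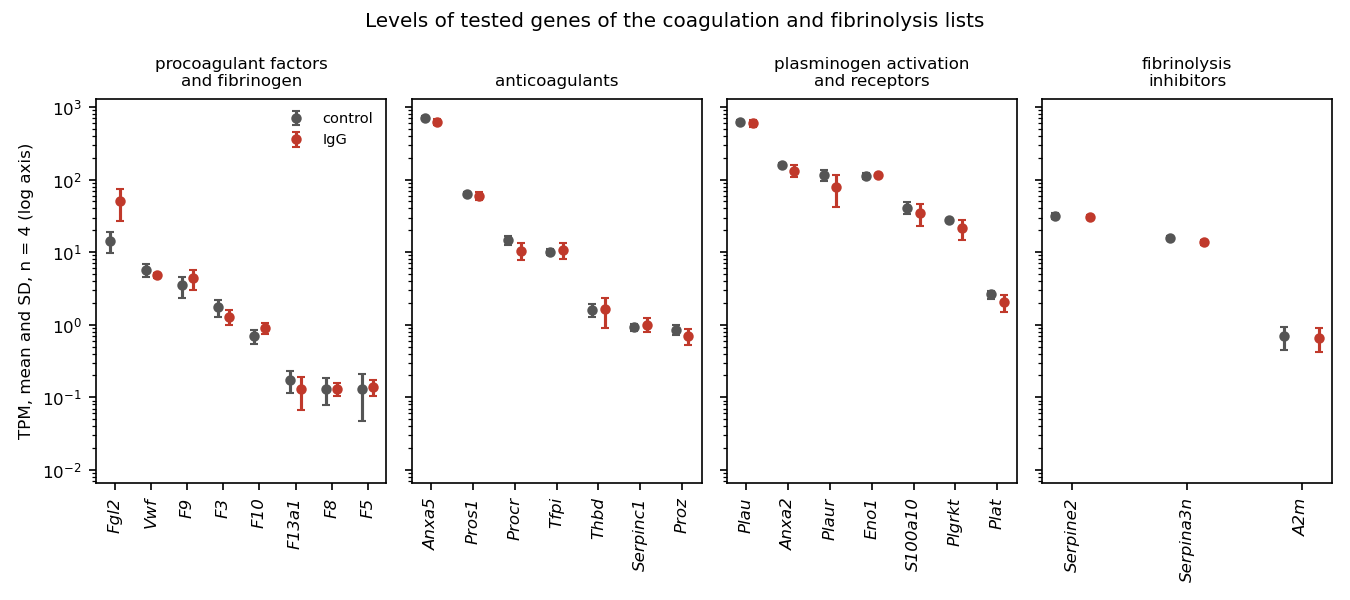
Level in TPM (log axis, mean and SD of 4 libraries) of tested genes, all but 1, of the 4 coagulation and fibrinolysis lists, in control (grey) and IgG libraries (red). Fgl2 shows the widest gap between the groups, and the plasminogen activation list and Anxa5 hold the highest levels.

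Of 4 protease-activated receptors, the thrombin receptors F2r (8.73 ± 2.01 TPM in control and 6.57 ± 1.69 with IgG) and F2rl2 (3.93 ± 1.39 and 2.71 ± 0.21 TPM) were tested, and neither passed (edgeR adjusted p = 0.508 and 0.583). All 6 genes of the vitamin K cycle and factor secretion were higher with IgG by 0.044 to 0.27 on the log2 scale with TMM, where 49.1% of all genes were higher, but 3 were higher and 3 lower with scaling by library totals, and 0 passed either p in edgeR. Of these, Gas6, the vitamin K-dependent ligand of the TAM receptors, stood at 329.7 ± 16.8 and 308.8 ± 15.3 TPM, Vkorc1 at 71.3 ± 3.6 and 68.7 ± 20.1 TPM, and Mcfd2 at 51.9 ± 5.5 and 53.3 ± 6.7 TPM. TPM is a share of all transcripts in a library and was not TMM-scaled, so its direction can differ from that of the fitted difference.

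Of 8 genes for fibrin and FGL2 binding, transglutaminases and uptake, 7 were tested, 4 higher and 3 lower, with a median of 0.028 (-0.042 without pairs 1 and 3) and 0 past the adjusted p with edgeR. The median also turned to -0.013 without replicate 1. With scaling by library totals it was -0.073, with 3 higher and 4 lower. The receptor genes Itgb2 (557.3 ± 55.3 and 477.8 ± 51.0 TPM), Itgax (324.9 ± 34.0 and 259.9 ± 27.8 TPM) and Lrp1 (293.8 ± 10.5 and 256.9 ± 37.8 TPM) were the most abundant. Tgm2, the tissue transglutaminase gene, named after its values were seen, met the criterion of the study with a log2 difference of 0.59 ± 0.13 (edgeR adjusted p = 0.176), and DESeq2 called it after adjustment. It stood at 24.0, 15.5, 24.0 and 15.2 CPM in control and 44.6, 18.2, 42.0 and 19.7 CPM in IgG replicates 1 to 4, and its difference was 0.31 ± 0.17 without pairs 1 and 3 (edgeR adjusted p = 0.644). Tgm2 overlaps Rprd1b on the opposite strand, and counting by strand is not given in the sources used here.

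Of 4 phosphatidylserine exposure genes, 3 were higher and 1 lower, with a median of 0.22 and 0 past either p in edgeR. This median was -0.065 without pairs 1 and 3, 0.10 without replicate 3 and 0.11 with scaling by library totals. The most abundant were Tmem30a (50.2 ± 2.5 and 55.3 ± 10.8 TPM) and Ano6 (18.9 ± 0.65 and 20.8 ± 5.2 TPM). The 8 transcription factors known at F3, Thbd or Fgl2 had a median of -0.032, 3 higher and 5 lower (0 higher and 8 lower with scaling by library totals, which moved the median of all genes to -0.105; the list median was 0.022 without replicate 3 and 0.027 without pairs 1 and 3), with 0 past either p in edgeR. Spi1, the PU.1 gene, stood at 260.2 ± 16.2 and 239.9 ± 33.2 TPM, Jun at 60.5 ± 2.4 and 53.0 ± 4.9 TPM, and Rela at 60.2 ± 1.9 and 53.8 ± 4.8 TPM. Of the tested genes of the 9 lists, leaving aside Fgl2, limma-voom called none after adjustment and DESeq2 called Tgm2 alone.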

How the data were processed

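RNA-seq libraries of 4 control and 4 IgG-treated microglial cultures were grouped by their labels. Per Ensembl gene, the authors deposited raw read counts. They had dropped low-quality reads and used HISAT2 2.2.1 for alignment to mm10. The submitters' processing notes also name featureCounts without a version. The annotation and the use of strand are not given in the sources used here. Symbols, positions and exon lengths came from GENCODE M21, which holds 55144 of the 55385 identifiers. The members and lists were chosen with earlier results of these data known.

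Counts were scaled with TMM, filtered with filterByExpr and fitted in R 4.3.3 by edgeR 4.0.16 (glmQLFit and glmQLFTest), with the replicate number as a block and Benjamini-Hochberg adjustment over 17537 genes. Same-numbered libraries share a date in the labels, and their deviations from the group means correlated at 0.468, 0.429, 0.28 and 0.325 over 11900 genes, against -0.384 to 0.278 between different numbers. Log2 CPM used a prior count of 2, and TPM used merged exon length. No 2 libraries of a group agreed within sampling noise (chi-square per degree of freedom at least 5). Intervals are at 95% from the same fit. Limits from 3 counts cover counting error only. Named in the text are all 9 genes, genes of each pathway list past the adjusted p or else the 3 of highest control TPM, the 10 most like Fgl2, and marker genes that bear on a member or on the tissue label; for the plasminogen list, 2 of the 3 are members. For 2 listed genes the values are not reported here. Alternatives were no block, other scalings and filters, a likelihood ratio test, DESeq2 1.42.0, limma-voom 3.58.1, a length and GC correction, each pair left out and, chosen after seeing the data, pairs 1 and 3 left out. Scripts were tested on simulated data.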

Additional observations from a re-analysis of the deposited data

How the results depend on the processing

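The number of genes past an adjusted p of 0.05, 69 in the fit with the replicate block, was 0 without the replicate block (edgeR; 148 genes met the criterion of the study there, against 320). It was 37 with total-count scaling, 376 with genes of at least 1 count kept, 327 with the likelihood ratio test, 233 with DESeq2, 198 with the length and GC trend removed, 190 without pairs 1 and 3, and 0 to 182 with single pairs left out. The criterion was met by 648 genes with at least 1 count kept, by 528 with the likelihood ratio test and by 215 to 762 with single pairs left out. Total-count scaling moved the median of all genes to -0.105 and the split of the criterion from 260 higher and 60 lower to 172 and 140. Of the 7 genes other than Fgl2, 1 (Plaur) passed the adjusted p with genes of at least 1 count kept, and 1 (Plaur) met the criterion under total-count scaling, that filter, the likelihood ratio test, DESeq2 and without replicate 4, the range with single pairs left out being 0 to 1. Without replicate 4 the adjusted p of Plaur was 0.0527, with a difference of -0.69. Plau turned to -0.032 under total-count scaling, to -0.14 without pairs 1 and 3, and ran from -0.013 to 0.16 with single pairs left out. Without pairs 1 and 3 Tfpi turned to -0.061 and Thbd to -0.24, and Thbd ran from -0.070 to 0.30 with single pairs left out. The cause was not tested. Fgl2 ran from 1.58 to 1.99, higher in all settings. The replicate block changed no call among the 7 at the adjusted p. F13a1 could not be tested with at least 10 counts required. Depth limits F7, F13a1, F10 and F3.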

Other observations

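Outside the tested genes, F2rl3, which encodes the thrombin receptor PAR4, gave 8, 5, 2 and 10 counts in control replicates 1 to 4 and 1, 0, 0 and 2 counts in IgG replicates 1 to 4. The groups touched at 2 counts, the gene was below the filter on low counts, and it was picked after its values were seen, so no test is given. Serpinb2, the PAI-2 gene, gave 6 counts in control and 8 in IgG libraries, and Tfpi2 gave 15 and 16. Klkb1, the plasma kallikrein gene, gave 26 and 20 counts, and Serpind1, the heparin cofactor II gene, 37 and 23.

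Markers of blood cells that carry clotting proteins were low. Platelet markers summed to 3.03 to 4.65 CPM in control and 2.80 to 5.60 CPM in IgG libraries, with Ppbp and Gp6 at 2 counts each over all 8 libraries. Most of that sum was Gp1bb, at 2.96 ± 0.50 CPM in control and 3.07 ± 1.20 CPM with IgG. Itga2b also passed the filter, at 0.54 ± 0.12 and 0.42 ± 0.19 CPM. Monocyte markers summed to 0.73 to 1.51 CPM in control and 0.48 to 0.93 CPM in IgG libraries, with Chil3 and Plac8 at 0 counts in every library. Most of that sum was Ccr2, at 1.14 ± 0.35 CPM in control and 0.66 ± 0.18 CPM with IgG. Ccr2 was lower in all 4 pairs, as were 8.47% of all genes tested (log2 difference -0.76 ± 0.31, edgeR adjusted p = 0.472).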
